A study of Mus musculus with 15 samples.

Results

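The B cell genes described here were 9 genes that mark the B lymphocyte lineage: Vpreb1, Igll1 and Rag1 of the pre-B stage, Ebf1 and Pax5, the transcription factors that set up and hold B cell identity, Cd79a and Cd79b, the signalling chains of the B cell receptor, and Ms4a1 and Cd22, surface proteins of mature B cells. They were found by the accession that the array gives each probe, and all 9 had at least 1 probe. These were 11 of the 55681 non-control probes, or 9 of the 21154 genes with a mouse symbol. Pax5 and Rag1 had 2 probes each and the others had 1.

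RNA came from the midshaft femur of male C57BL/6J mice, 9 weeks old per the labels, on 15 dual-dye arrays, 1 mouse on each. This labelled age is not the age at sampling. The paper places it near the time of surgery and reports that the tissue was taken weeks later, at the end of the flight period. G-Sham (n = 4) were unoperated mice kept on the ground and FLT-Sham (n = 4) were unoperated mice flown to the space station. G-Surgery (n = 4) and FLT-Surgery (n = 3) carried a segmental bone defect (SBD), made a few days before launch. The SBD was a gap cut out of the femur and bridged by a scaffold on a pin. A collagen sponge soaked in saline was put around the scaffold. The same midshaft region was taken in all groups, so the surgery samples held callus and the sham samples intact shaft with its marrow. All femora were ground while frozen. The paper reports that RNA integrity was low on average and comparable between flight and ground. Femoral RNA carried Cy5 and a reference RNA, the same on every array, carried Cy3. The log2 ratio below is Cy5 over Cy3, and the Cy5 signal is the processed brightness of the femoral RNA alone. Fewer B cells and less RNA per B cell cannot be told apart in such bulk samples.

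B cells are made in the bone marrow in ordered steps. Ebf1 opens the program and switches on Pax5 and many B cell genes. Rag1, with its partner Rag2, cuts and joins the immunoglobulin gene segments. Vpreb1 and Igll1 form the surrogate light chain, which pairs with a newly made heavy chain before a true light chain exists and is lost again as the cell matures. Cd79a and Cd79b stay on from the pro-B stage to the mature cell, Ms4a1 (CD20) appears late, and Cd22 restrains receptor signalling through its cytoplasmic tail. Ebf1 is also used outside the B lineage, in adipocytes and marrow stroma.

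Of the 9 genes, 7 had a promoter in the RefSeq table (GRCm38.p6), and Cd79b and Ms4a1 did not. The promoters of 3 genes are shown, the 250 bases before the start of transcription, because their genes had the most unlike detection: Vpreb1 was above background on FLT-Sham arrays alone, Cd22 on every array and Cd79a, the standard pan-B marker, on a single array. Capitals mark matches on either strand to CCCNNGGG, the core of the site recognised by Ebf1, or to CAGGTG, an E-box recognised by E proteins such as the product of Tcf3. The 2 motifs do not overlap each other in these windows. Vpreb1 lies on the minus strand with this window at chr16:16869256-16869505, Cd22 on the minus strand at chr7:30879029-30879278 and Cd79a on the plus strand at chr7:24897247-24897496.

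Vpreb1: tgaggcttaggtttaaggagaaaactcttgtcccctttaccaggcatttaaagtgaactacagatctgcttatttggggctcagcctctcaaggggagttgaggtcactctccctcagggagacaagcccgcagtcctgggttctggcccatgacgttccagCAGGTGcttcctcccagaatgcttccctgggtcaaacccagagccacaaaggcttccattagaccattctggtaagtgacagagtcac
Cd22: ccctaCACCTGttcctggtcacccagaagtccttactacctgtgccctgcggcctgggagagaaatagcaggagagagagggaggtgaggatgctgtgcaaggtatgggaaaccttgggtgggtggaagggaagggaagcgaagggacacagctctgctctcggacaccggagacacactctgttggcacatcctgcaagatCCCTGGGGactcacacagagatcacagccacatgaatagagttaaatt
Cd79a: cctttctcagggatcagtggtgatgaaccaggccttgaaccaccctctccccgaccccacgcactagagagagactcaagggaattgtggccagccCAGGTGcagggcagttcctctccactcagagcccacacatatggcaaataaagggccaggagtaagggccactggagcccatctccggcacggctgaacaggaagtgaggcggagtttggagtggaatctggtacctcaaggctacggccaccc

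Among the 8 promoters of these 7 genes (Ebf1 has 2), Cd22 held the Ebf1 core 48 bases before the start and Igll1 held it 231 bases before, and the other promoters held no match in the window. It was held by 11.8% of all 32851 promoters listed. The E-box stood in the promoters of Vpreb1, Cd22, Cd79a, Igll1 and Rag1, and in 17.2% of all promoters. A match is a run of letters and was not tested for binding.

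Depth on an array is set by how many probes rise over background. Cy5 was well above background for between 12484 and 21457 probes per array, and 3 of the 4 FLT-Sham arrays (replicates 4, 6 and 9, with 20846, 21457 and 19410) were among the 4 arrays with the most, whereas FLT-Sham replicate 8 had 14808. The arrays fell into 3 sets by shared scan time, taken here as slides, of which 1 held a single G-Sham array. Correlations of the log2 ratio between arrays ran from 0.55 to 0.87. Of all probes, 42.8% were above background on no array and 14.9% on all 15.

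The members divided sharply by how often they could be seen at all. Igll1 and both Rag1 probes were not well above background on any of the 15 arrays, the second Pax5 probe (A_51_P122855) on none either, Cd79a on 1, Vpreb1 and Ebf1 on 3, the leading Pax5 probe and Ms4a1 on 4, Cd79b on 10 and Cd22 on 15. By array, between 1 and 6 of the 9 genes were above background. FLT-Sham arrays had 4 to 6, G-Sham 1 to 4, G-Surgery 2 to 3, and each FLT-Surgery array had 1, which was Cd22. Of all probes, 26.6% to 38.5% were above background on the FLT-Sham arrays and 23.1% to 32.8% on G-Sham. The shares were 25.7% to 37.1% on G-Surgery and 22.4% to 25.6% on FLT-Surgery. The labelled cell type therefore rests on few detected markers here, with Cd79a and both recombinase and surrogate light chain genes at or near background outside the arrays named.

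**Figure D1:**
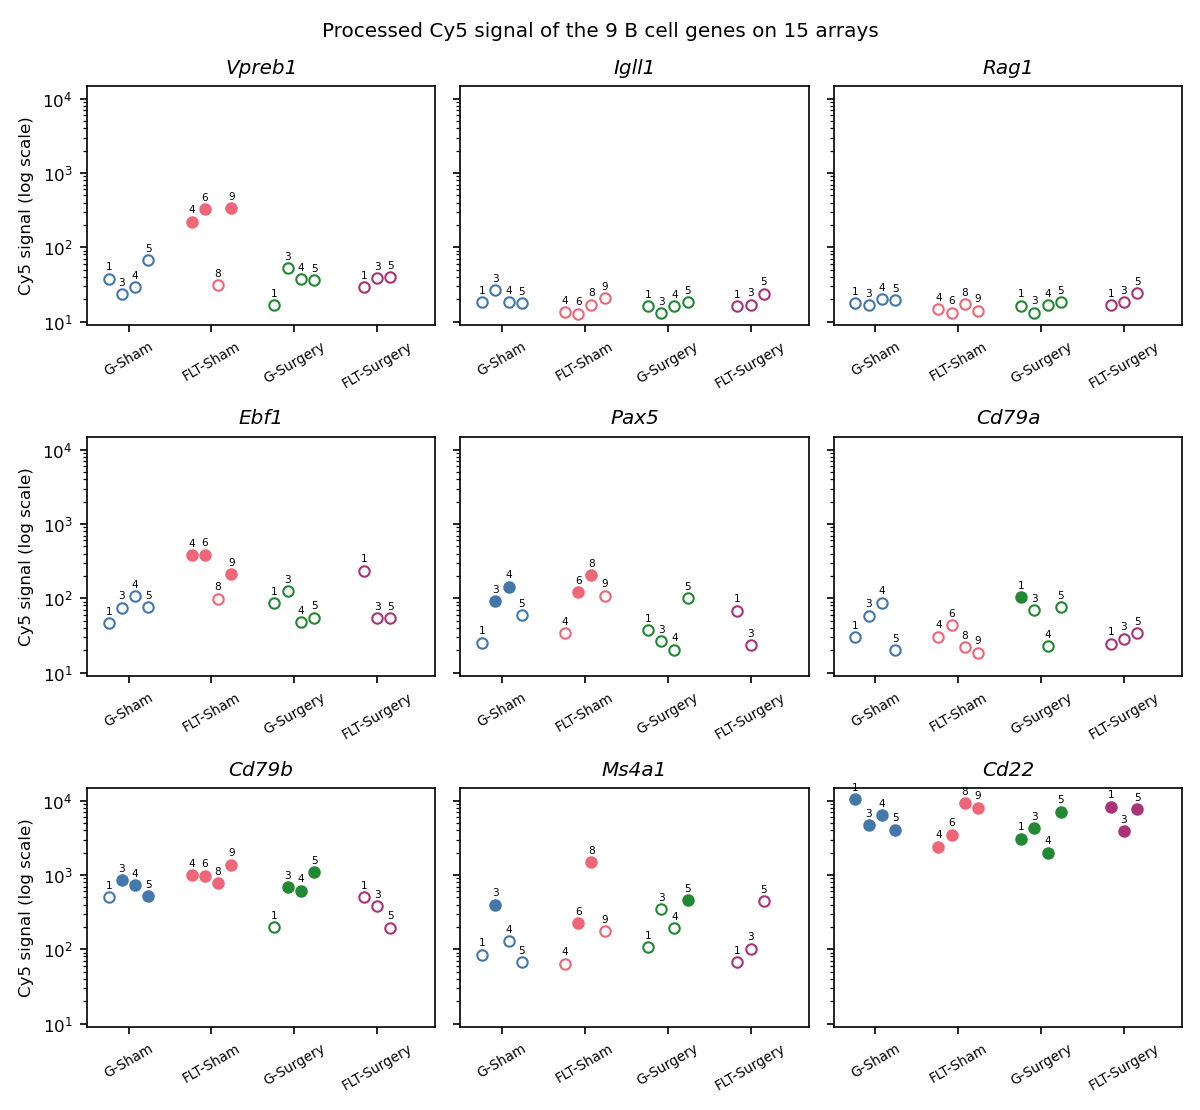
Processed Cy5 signal (log axis) of each of the 9 genes at its leading probe on the 15 arrays, in the 4 groups, with the replicate number above each point. Filled points were well above background and open points were not. Vpreb1 and Ebf1 are filled at FLT-Sham replicates 4, 6 and 9 alone, Cd22 is filled everywhere, and Igll1 and Rag1 are open everywhere.

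Vpreb1, the surrogate light chain gene, gave the clearest pattern of the pre-B members. Its Cy5 signal was 221, 326 and 338 on FLT-Sham replicates 4, 6 and 9 and 31.0 on replicate 8. On G-Sham replicates 1, 3, 4 and 5 it was 37.8, 23.3, 29.2 and 67.0. It was 16.7 to 52.3 on the 4 G-Surgery arrays and 28.8 to 39.9 on the 3 FLT-Surgery arrays. The 3 high arrays stood apart from the other 12, and the fourth FLT-Sham array lay among those 12, so the groups overlapped. These were dim spots: before scaling, the Cy5 brightness over the local background was 14, 23.5 and 21.5 scanner units on the 3 high arrays and at most 9 elsewhere.

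The log2 ratio of Vpreb1 was 0.74, 1.23, -2.91 and 0.94 on FLT-Sham replicates 4, 6, 8 and 9, against -2.90, -2.88, -2.78 and -0.80 on G-Sham replicates 1, 3, 4 and 5. It ran from -3.77 to -2.06 on the G-Surgery arrays and from -2.69 to -2.48 on the FLT-Surgery arrays. Ordered by the median log2 ratio, FLT-Sham (0.84) came first, followed by G-Surgery (-2.51), FLT-Surgery (-2.66) and G-Sham (-2.83), and the last 3 differed from each other by less than the SD over the G-Surgery arrays (0.75). The reference channel was above background for Vpreb1 on all 15 arrays, so the ratio had a measured denominator.

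In FLT-Sham against G-Sham, the comparison that asks what spaceflight did to intact femora, the fitted log2 difference of Vpreb1 was 2.34 (SE 0.95, limma, unadjusted p = 0.037, Benjamini-Hochberg adjusted p = 0.511) with a 95% confidence interval from 0.17 to 4.51. The probe entered the fit through FLT-Sham replicates 4, 6 and 9 alone, the arrays on which it was high, so its p supports nothing by itself. With no filter on dim probes the limma interval was -0.13 to 4.81 (unadjusted p = 0.060), and with slide as a block -0.60 to 5.001 (unadjusted p = 0.105), both including 0. Because no G-Sham array measured the probe above background and 3 of 4 FLT-Sham arrays did, Vpreb1 was at least 1.37-fold higher in FLT-Sham when each G-Sham array is set at its lowest signal above background, as deposited. It did not pass the study's cut-off of a 2-fold change with an unadjusted p of 0.01. Without FLT-Sham replicate 8 the difference was 3.31 (SE 0.56, adjusted p = 0.031) and did pass, in a fit where 9.09% of all probes tested passed as higher. Over 13 alternatives the adjusted p ran from 0.011 to 0.844. Within the slide that held 1 array of each group the difference was 3.63, and within the slide that held 3 and 2 it was 1.60.

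In FLT-Surgery against FLT-Sham, flown mice with and without the defect, Vpreb1 differed by -2.61 (SE 0.98, unadjusted p = 0.029, adjusted p = 0.176, 95% interval -4.88 to -0.35), and its level in FLT-Sham was at least 1.43-fold the lowest signals above background in FLT-Surgery. Here too it entered the fit through the 3 high FLT-Sham arrays alone, and with no filter on dim probes the limma interval was -5.27 to 0.048 (unadjusted p = 0.053), which includes 0. It did not pass the cut-off, and the comparison shares the FLT-Sham arrays with the one above. Without FLT-Sham replicate 8 the difference was -3.58 (adjusted p = 0.0016) and passed, where 21.1% of all probes tested passed as lower. Within slides it was -3.31 and -2.44, and with normexp background correction it was -0.51. The test of whether the spaceflight difference was itself unlike in operated and unoperated mice (an interaction over all 15 arrays) gave -2.24 for Vpreb1 (SE 1.17, unadjusted p = 0.077, adjusted p = 0.296), and without FLT-Sham replicate 8 it was -3.21 (adjusted p = 0.035) and passed, where 13.6% passed as lower. In the remaining 2 comparisons Vpreb1 had too few arrays above background to pass the filter on dim probes. Without that filter it differed by 0.10 in FLT-Surgery against G-Surgery and by -0.37 in G-Surgery against G-Sham.

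Igll1, the second surrogate light chain gene and a close neighbour of Vpreb1 on chromosome 16, was not seen to move with it. Its Cy5 signal stayed between 12.8 and 26.6 on all 15 arrays. Feature Extraction had replaced both channels by a noise value on 13 arrays, so that the log2 ratio there is exactly 0 and is no measurement. Rag1, the recombinase subunit, was in the same state, with Cy5 of 13.1 to 24.2 at the leading probe and 11.1 to 20.3 at the other, and a ratio of exactly 0 on 15 and 14 arrays. Neither gene can be compared between groups at this brightness.

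Ebf1, the founding B-lineage factor, was above background on the same 3 arrays as Vpreb1. Its Cy5 signal was 384, 386, 99.3 and 212 on FLT-Sham replicates 4, 6, 8 and 9. It was 46.6 to 108 on G-Sham, 47.9 to 126 on G-Surgery, and 235, 54.5 and 54.1 on FLT-Surgery replicates 1, 3 and 5. FLT-Surgery replicate 1 was thus brighter than FLT-Sham replicate 9 without passing the array's background test. Of all 55681 probes, 841 (1.51%) were above background on exactly these 3 arrays.

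The log2 ratio of Ebf1 was -0.32, -0.31, -2.45 and -1.46 on the FLT-Sham arrays and -4.03, -2.71, -2.66 and -2.29 on the G-Sham arrays, with FLT-Sham replicate 8 inside the G-Sham range. The fitted difference was 1.79 (SE 0.59, 95% interval 0.44 to 3.14, limma unadjusted p = 0.015, adjusted p = 0.493), and it did not pass the cut-off. Ebf1 too entered the fit through FLT-Sham replicates 4, 6 and 9 alone, the arrays on which it was high, so its p likewise supports nothing by itself. With every G-Sham array placed at its dimmest signal called above background, as deposited, it was at least 1.82-fold higher, and with normexp background correction the log2 difference was 0.16. Without FLT-Sham replicate 8 it was 2.23 (adjusted p = 0.062) and passed the cut-off, where 9.09% of all probes tested passed as higher. Within slides it was 2.39 and 1.75. Over 13 alternatives the adjusted p ran from 0.013 to 0.844. In FLT-Surgery against FLT-Sham it was -1.60 (SE 0.87, adjusted p = 0.271), -3.39 in 1 slide and 0.61 in the other. With further loess it was -0.59 there, and with normexp background correction -0.07. Without FLT-Surgery replicate 1 it was -2.57 (adjusted p = 0.071) and passed, where 11.7% of all probes tested passed as lower.

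**Figure D2:**
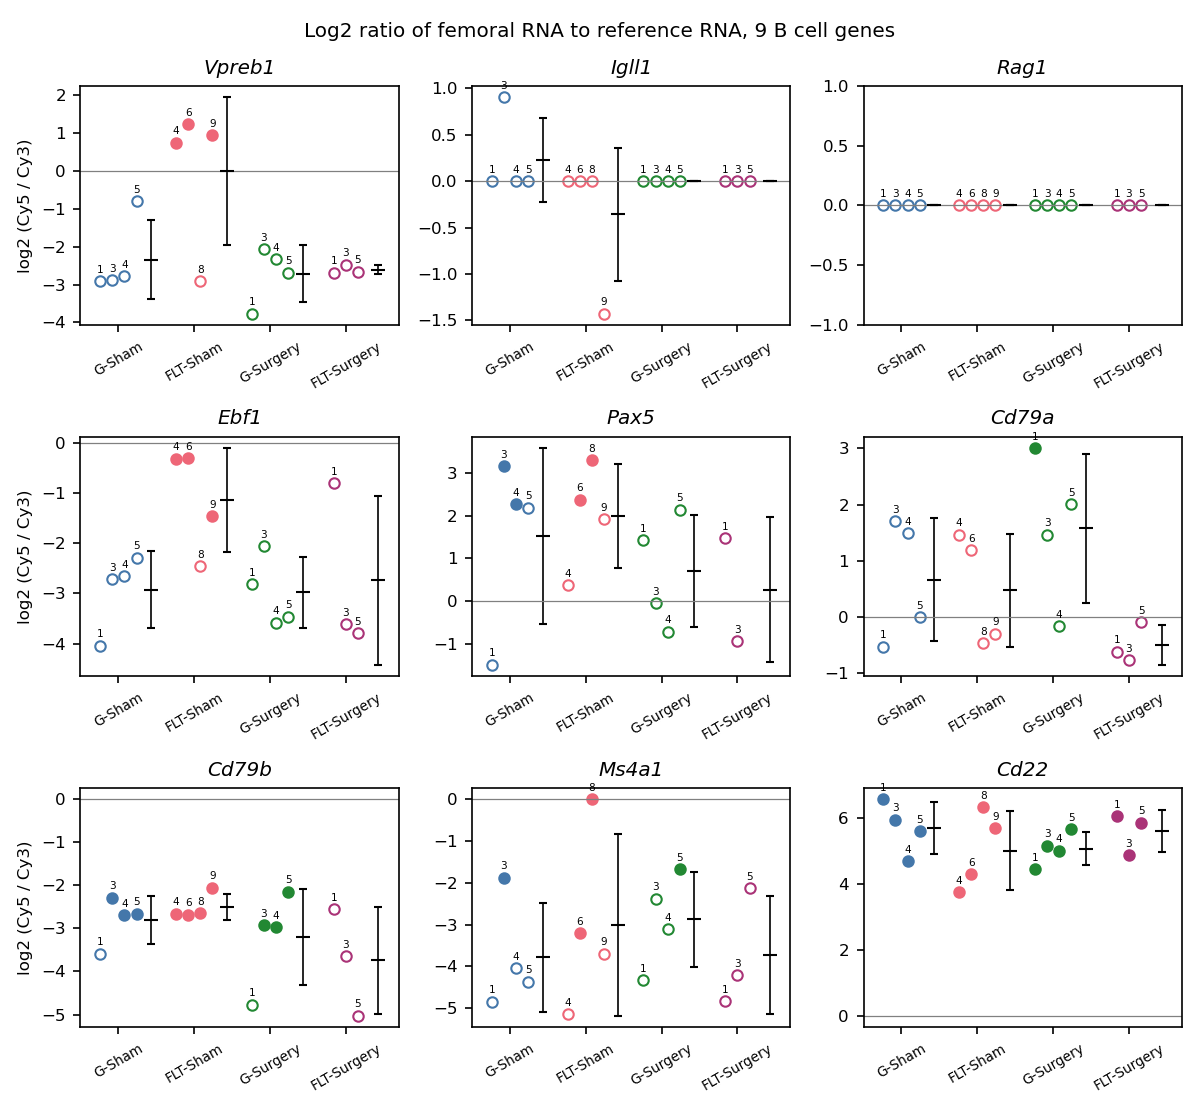
Log2 ratio of femoral RNA (Cy5) to reference RNA (Cy3) for the 9 genes at the leading probe, by group, with the replicate number above each point (filled where Cy5 was well above background). The bar beside each group is the mean and SD over its arrays. Vpreb1 is highest at FLT-Sham replicates 4, 6 and 9, and Ebf1 at replicates 4 and 6 followed by FLT-Surgery replicate 1 (-0.80), which was not above background. The FLT-Sham points of Cd22 span 3.75 to 6.34, within or below those of G-Sham.

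Pax5, which holds B cell identity and represses other fates, showed no such pattern. Its leading probe (A_55_P2126394) was above background on G-Sham replicates 3 and 4 and FLT-Sham replicates 6 and 8, with Cy5 of 90.8, 143, 120 and 206. It was below on FLT-Sham replicate 4 (34.1), where Vpreb1 and Ebf1 were high. The spot of FLT-Surgery replicate 5 was an outlier and was left out. Fitted as FLT-Sham minus G-Sham, the log2 difference was 0.46 (SE 1.02, adjusted p = 0.821), and its sign turned without G-Sham replicate 1 (-0.54). The reference was above background for this probe on 1 array only, so its ratio rests on an unmeasured denominator. The other probe read 15.01 to 128 in Cy5, always below the background test.

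Cd79a, the receptor chain that marks every B cell stage, was above background on G-Surgery replicate 1 alone, at a Cy5 signal of 103. It was 69.2, 22.6 and 75.4 on G-Surgery replicates 3, 4 and 5, 19.9 to 87.5 on G-Sham, 18.5 to 43.6 on FLT-Sham and 24.5 to 33.7 on FLT-Surgery. The 3 FLT-Sham arrays that were high in Vpreb1 read 30.5, 43.6 and 18.5, inside the G-Sham range for replicates 4 and 6 and just under it for replicate 9. Its reference signal was above background on no array, so its ratio rests on an unmeasured denominator. Cd79a did not pass the filter on dim probes in any comparison. Without that filter, FLT-Surgery minus G-Surgery was -2.07 on the log2 scale (limma unadjusted p = 0.035, adjusted p = 0.545). It was -0.96 for FLT-Surgery against FLT-Sham, 0.91 for G-Surgery against G-Sham and -0.19 for FLT-Sham against G-Sham. The interaction was -1.88 (unadjusted p = 0.098).

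Cd79b, the partner chain, was the best measured of the genes used from the earliest stages on. Its Cy5 signal was 986, 979, 775 and 1372 on FLT-Sham replicates 4, 6, 8 and 9, and 499, 857, 730 and 523 on G-Sham replicates 1, 3, 4 and 5. It was 200.3, 680, 617 and 1094 on G-Surgery replicates 1, 3, 4 and 5. On FLT-Surgery replicates 1, 3 and 5 it was 506, 382 and 195, and none of the 3 passed the background test. The groups overlapped in every comparison on the log2 ratio scale, where FLT-Sham ran from -2.69 to -2.06 and FLT-Surgery from -5.03 to -2.55.

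The largest fitted log2 difference of Cd79b was -1.23 (SE 0.59, 95% interval -2.59 to 0.14, limma unadjusted p = 0.071, adjusted p = 0.237), in FLT-Surgery against FLT-Sham. It was -1.82 (adjusted p = 0.075) without FLT-Surgery replicate 1 and then passed the cut-off, where 11.7% of all probes tested passed as lower, and -0.58 without FLT-Surgery replicate 5. Within slides it was -1.67 and -0.09. With normexp background correction in place of the deposited one its sign turned, to 0.79 (adjusted p = 0.233). The other differences of Cd79b were 0.29 (SE 0.37) for FLT-Sham against G-Sham, -0.53 (SE 0.75) for FLT-Surgery against G-Surgery and -0.40 (SE 0.56) for G-Surgery against G-Sham, all with an adjusted p of at least 0.682. Its interaction was -0.83 (SE 0.85, limma adjusted p = 0.586).

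Ms4a1, which encodes CD20 and marks later B cells, was scattered over groups. Cy5 was above background on G-Sham replicate 3 (400.2), FLT-Sham replicates 6 (226) and 8 (1475) and G-Surgery replicate 5 (457). FLT-Surgery replicate 5 read 440.1 and did not pass. FLT-Sham replicate 8, the array at which Vpreb1 and Ebf1 were low, thus had the highest Ms4a1 signal of the series, and FLT-Sham replicate 4, at which both were high, had the lowest (64.4). On the log2 ratio scale FLT-Sham minus G-Sham was 0.78 (SE 1.09, 95% interval -1.69 to 3.25, adjusted p = 0.713), and the 2 slides gave -3.26 and 2.31.

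Cd22, an inhibitory lectin receptor, was the sole member measured on every array. Its Cy5 signal was 10606, 4716, 6345 and 4081 on G-Sham replicates 1, 3, 4 and 5, and 2397, 3504, 9272 and 8076 on FLT-Sham replicates 4, 6, 8 and 9. G-Surgery replicates 1, 3, 4 and 5 read 3089, 4250.3, 1994 and 7105, and FLT-Surgery replicates 1, 3 and 5 read 8293, 3887 and 7681. The log2 ratio was between 3.75 and 6.60, above the reference after dye scaling, whereas Cd79b and Ms4a1 lay below it, apart from Ms4a1 on FLT-Sham replicate 8 (0.0061). Before scaling, Cd22 read 28 to 190.5 scanner units over the local background in Cy5 and 81 to 315 in Cy3. The linear dye factors were 19.8 to 59.5 for Cy5 and 0.44 to 1.31 for Cy3, so the height of this ratio rests on the scaling. What else the Cd22 probe binds was not checked. The highest and lowest arrays came from different groups and the groups overlapped throughout.

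The median log2 ratio of Cd22 was 5.87 in FLT-Surgery, 5.79 in G-Sham, 5.09 in G-Surgery and 5.003 in FLT-Sham, and each step in this order was smaller than the SD over the G-Sham arrays (0.79). The fitted log2 differences were -0.69 (95% interval -2.17 to 0.79, adjusted p = 0.600) for FLT-Sham against G-Sham, 0.54 (-0.42 to 1.49, 0.514) for FLT-Surgery against G-Surgery, -0.64 (-1.64 to 0.36, 0.599) for G-Surgery against G-Sham and 0.59 (-1.01 to 2.19, 0.570) for FLT-Surgery against FLT-Sham. None was larger than the spread between arrays, and each interval reached past a 2-fold change in at least 1 direction.

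The 5 other genes closest to the Cd22 profile, by the root mean square difference of log2 ratios centred over the 15 arrays among 6402 candidate genes, were Rnf165 (0.26), Cyp2d11 (0.26), Pdik1l (0.28), Banp (0.28) and Erc2 (0.29). The SD of the Cd22 profile was 0.81. No pre-B probe was above background on the 12 arrays needed for such a profile.

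No comparison called a member of any stage. In FLT-Sham against G-Sham, 6 of the 11 member probes had enough signal to be fitted. None of the 9 genes passed the cut-off, where 1.79% of all 19728 probes tested passed as higher and 0.208% as lower, and Vpreb1 and Ebf1 had an unadjusted p under 0.05, as did 9.57% of all probes. In FLT-Surgery against G-Surgery and in G-Surgery against G-Sham, only Cd79b and Cd22 had enough signal to be fitted. Neither passed, where 1.05% of probes passed as higher and 2.09% as lower in the first comparison and 2.08% and 0.509% in the second. Neither had an unadjusted p under 0.05, as 16.3% and 10.9% of probes did. In FLT-Surgery against FLT-Sham 4 members were fitted and none passed (0.424% of 19120 probes as higher, 6.23% as lower), with Vpreb1 alone at an unadjusted p under 0.05, beside 24.3% of all probes. In the interaction 6 were fitted, none passed (0.358% higher, 4.97% lower) and none had an unadjusted p under 0.05, beside 19.5% of all probes.

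**Figure D3:**
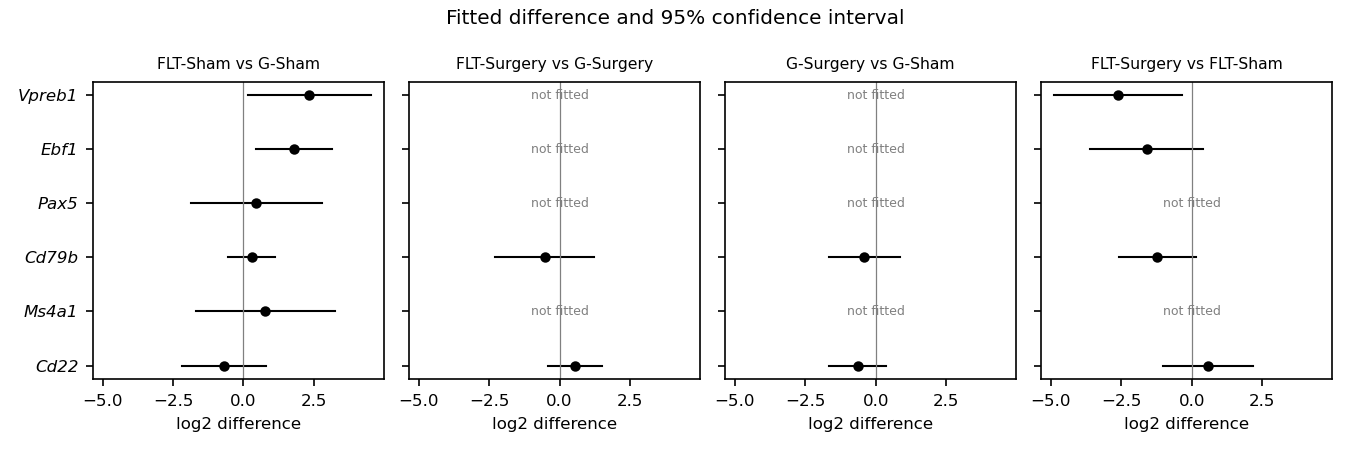
Fitted log2 difference (point) and 95% confidence interval (line) of the 6 members with enough signal, in the 4 comparisons; "not fitted" marks a probe above background on fewer than 3 arrays of the pair. The intervals of Vpreb1 in both comparisons with FLT-Sham, and that of Ebf1 in FLT-Sham against G-Sham, do not include 0 before adjustment over all probes, but these probes entered the fits through the FLT-Sham arrays where they were high, and with no filter on dim probes both Vpreb1 intervals include 0.

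The wider B lineage was described by 63 genes in 5 lists, of which 60 had a probe and Ighm, Ighd and Igkc did not. At the leading probe, 14 of the 60 were above background on all 15 arrays, 12 on none and 34 on some. Vpreb1, Vpreb3, Ebf1 and Foxo1 were above background on exactly FLT-Sham replicates 4, 6 and 9, that is, 4 of 60 genes. Of all 55681 probes, 841 (1.51%) shared this pattern, and so did the adipocyte gene Plin1. A second Foxo1 probe (A_52_P453884) was above background also on FLT-Sham replicate 8, on all 4 G-Surgery arrays and on FLT-Surgery replicate 1. Vpreb3, which binds the immunoglobulin chains of early B cells, read 237, 597, 60.5 and 374 in Cy5 on FLT-Sham replicates 4, 6, 8 and 9. It read 50.6 to 123 on G-Sham, 51.3 to 284 on G-Surgery and 63.1 to 215 on FLT-Surgery. G-Surgery replicate 5 (284) was thus brighter than FLT-Sham replicate 4 without passing the background test. Vpreb2, a near-identical copy of Vpreb1 whose RNA the Vpreb1 probe may also bind, was above background on FLT-Sham replicate 4 alone (133).

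Other markers of early B cells were seen on different arrays. Dntt, which adds bases at immunoglobulin joints, was above background on 11 arrays of all 4 groups, with a log2 difference of -0.30 (SE 0.46) for FLT-Sham minus G-Sham. Rag2 was above background on G-Sham replicate 4 alone and Il7r, the receptor that early B cells need to grow, on FLT-Surgery replicate 1 alone. Of the 7 plasma cell genes with a probe, 4 were above background on all 15 arrays. Among these, Jchain, which links secreted antibodies, had a Cy5 signal of 34583 to 111061 and Mzb1 of 1541 to 4096. Sdc1 was above background on 4 arrays, Prdm1 on 2 and Tnfrsf17 on none.

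Of the B-lineage list, Syk and Foxo1 passed the cut-off in a comparison. Syk, the kinase that carries the receptor signal inward, was higher in FLT-Sham than G-Sham by 2.09 (SE 0.46, unadjusted p = 0.0016, adjusted p = 0.387) and higher in G-Surgery than G-Sham by 2.13 (SE 0.56, adjusted p = 0.304), and these 2 comparisons share the G-Sham arrays. Its log2 ratio was -1.54, -0.20, -1.66 and -1.45 on G-Sham, and 0.90, 1.59, 0.08 and 0.93 on FLT-Sham, with no overlap; 3.64% of all probes tested were higher without overlap in this comparison. Foxo1, a factor that drives Rag1 and Il7r in early B cells and is used in many other tissues, passed at its second probe with 1.53 (SE 0.36, unadjusted p = 0.0022, adjusted p = 0.403). Neither call held after adjustment over all probes.

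By list, the median log2 difference in FLT-Sham against G-Sham was 1.66 for the 3 fitted pre-B and recombination genes, 0.73 for 12 transcription factors, 0.29 for 7 signalling genes, -0.16 for 10 mature surface genes and -0.21 for 4 plasma cell genes, beside 0.24 for all probes tested. The pre-B list passed the filter mainly through the FLT-Sham arrays, so its median had to lie high here and low in FLT-Surgery against FLT-Sham. In FLT-Surgery against FLT-Sham the medians were -1.36 (3 genes), -0.45 (11), -1.18 (6), 0.43 (8) and 0.84 (4), beside -0.28 for all probes.

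**Figure D4:**
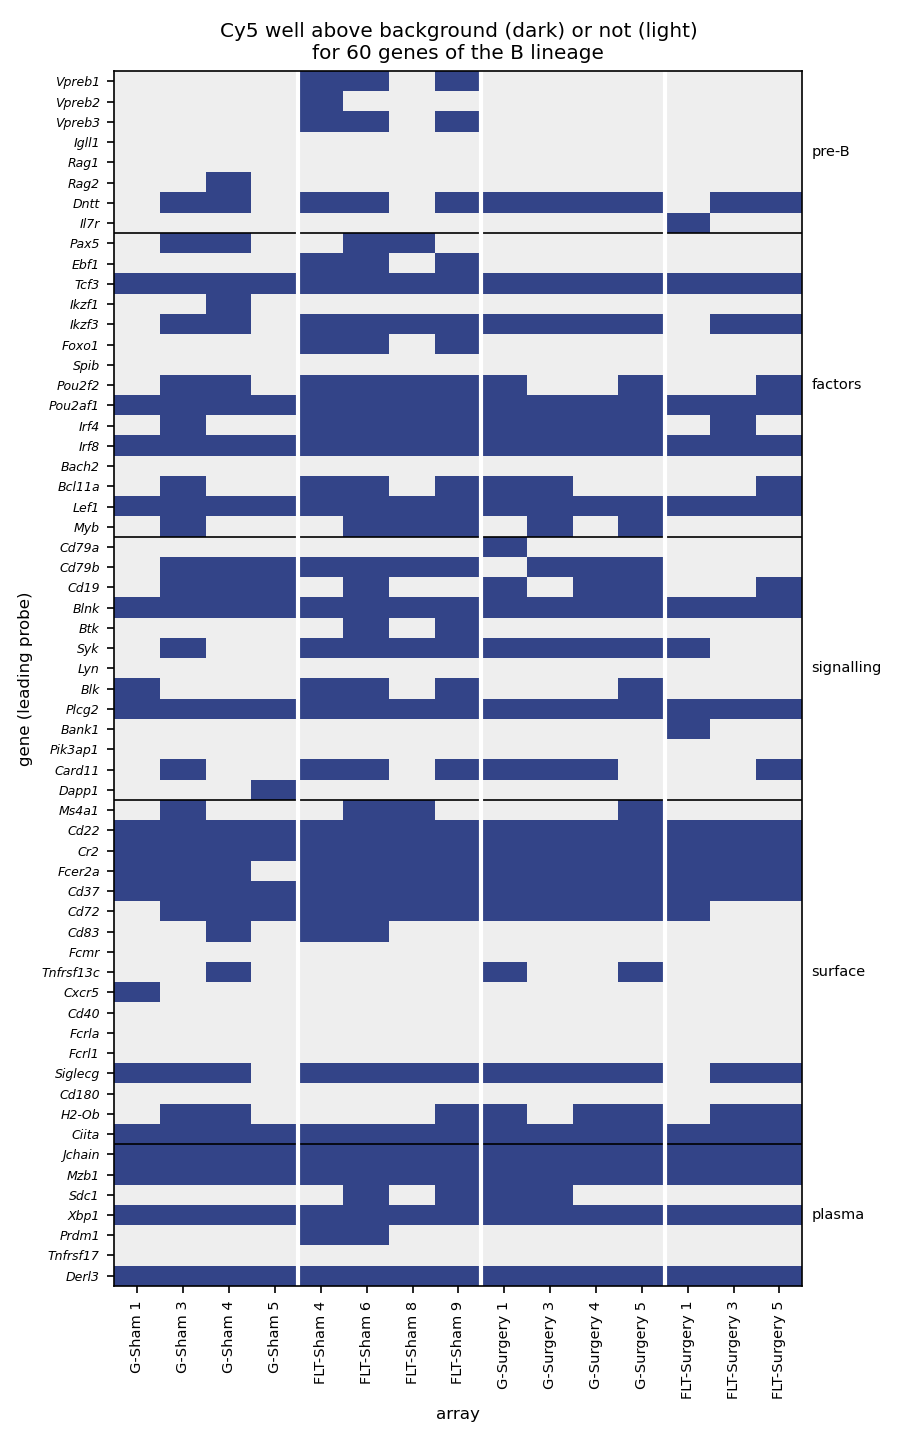
Detection of 60 B-lineage genes (rows, leading probe, in 5 lists) on the 15 arrays (columns); dark cells were well above background in Cy5 and light cells were not. Vpreb1, Vpreb3, Ebf1 and Foxo1 are dark at FLT-Sham replicates 4, 6 and 9 alone at these probes. The plasma cell genes Jchain, Mzb1, Xbp1 and Derl3 are dark across all columns, while Sdc1, Prdm1 and Tnfrsf17 are not.

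Markers of some other cell types moved with Vpreb1 and Ebf1 across the FLT-Sham arrays. The summed Cy5 signal of the skeletal muscle list (8 of 8 genes with a probe) was 6850210, 7177260, 753086 and 4128390 on FLT-Sham replicates 4, 6, 8 and 9, against 373500 to 2577350 in G-Sham and 121459 to 1612120 in FLT-Surgery. The adipocyte list (5 of 5) was 8569 to 50719 in FLT-Sham, 273 to 9884 in G-Sham, 1705 to 9410.4 in G-Surgery and 140.2 to 7068 in FLT-Surgery. The erythroid list (7 of 9) was 45343 to 239589 in FLT-Sham and at most 52216 in the other groups, and the neutrophil list (12 of 12) was 149954 to 397737 and at most 207417.

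For all 4 lists the highest sums were those of FLT-Sham replicates 4, 6 and 9, the arrays on which Vpreb1 and Ebf1 were seen, and replicate 8 was the lowest of its group. The T and NK list (11 of 11) did not share this order: it was 37636 to 82410.4 in FLT-Sham and 47631 to 82169 in G-Sham. Nor did the monocyte and macrophage list (8 of 8), at 194071, 277562, 741221 and 564496 on FLT-Sham replicates 4, 6, 8 and 9 and thus highest on replicate 8, or the leukocyte gene Ptprc, at 214, 341, 743 and 820. The monocyte and macrophage sum rested mostly on Itgam, with a Cy5 signal of 176468 to 776512 over all arrays. Of the 8 genes of that list, 6, 6, 3 and 5 were above background on these replicates, fewest on replicate 8. On the log2 ratio scale, FLT-Sham minus G-Sham, the median of the muscle list was 0.38, beside 0.24 for all probes, and those of the adipocyte, erythroid and neutrophil lists were 3.05, 1.83 and 0.98. Their part in the Vpreb1 and Ebf1 differences was not tested. G-Surgery replicate 1, with 20680 probes above background, had the lowest Vpreb1 signal of the series, and the part of the number of detected probes was not tested.

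**Figure D5:**
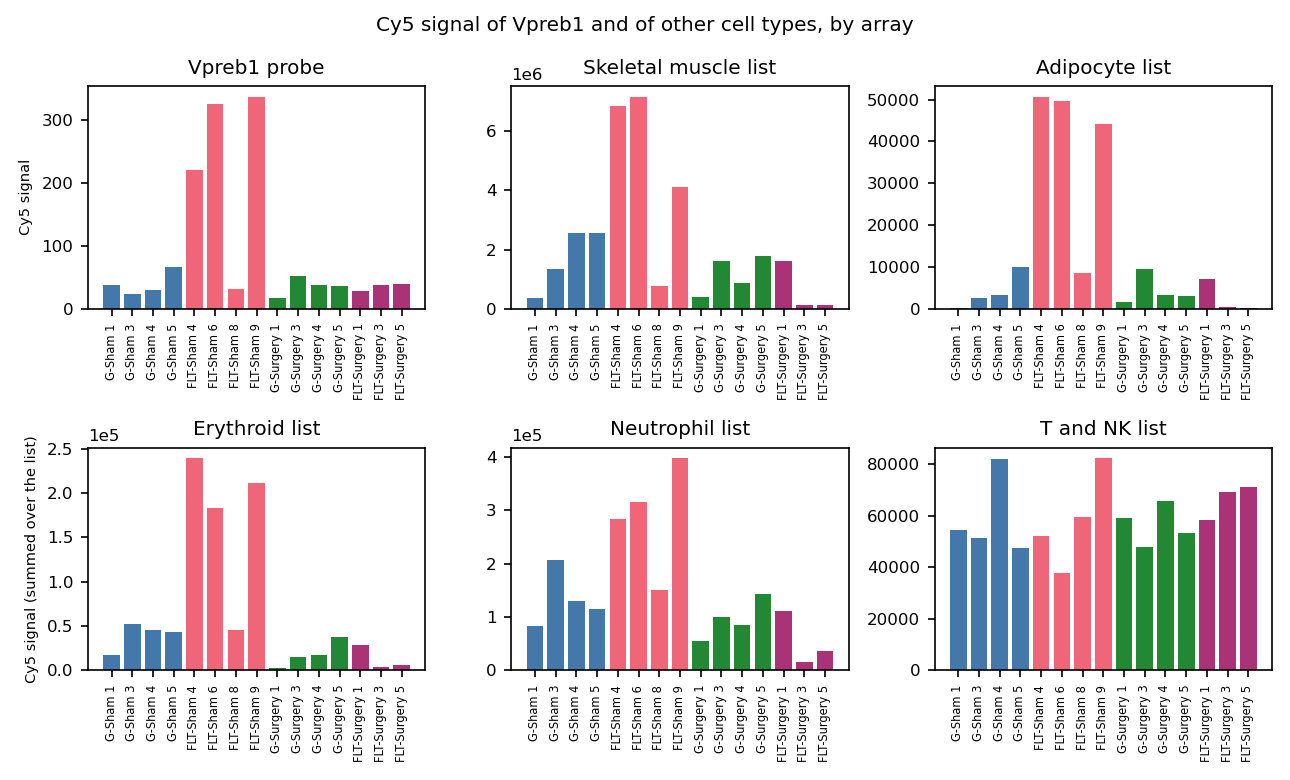
Cy5 signal of the Vpreb1 probe and summed Cy5 signal of 5 marker lists on each of the 15 arrays (bars start at 0; coloured by group). Vpreb1 and the muscle, adipocyte, erythroid and neutrophil sums are highest at FLT-Sham replicates 4, 6 and 9, and the T and NK sum is highest at FLT-Sham replicate 9 and G-Sham replicate 4.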

How the data were processed

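Femoral RNA of 15 mice (G-Sham, FLT-Sham and G-Surgery n = 4 each, FLT-Surgery n = 3) was compared with reference RNA on Agilent 8x60k arrays without dye swaps. Per the file headers, Agilent Feature Extraction (12.0 in the submitters' processing notes, another version in the study's methods) subtracted background, normalized the dyes linearly and by lowess, and replaced signals near noise by a surrogate. The authors deposited these log10 ratios with processed and median intensity values and no mean signals, so the normexp alternative used median signals. The series' value table holds the same log10 ratios rounded. Here the deposited log10 ratio was turned into log2 with no further loess. Outlier spots were dropped, spots of a probe averaged, and probes kept with Cy5 well above background on at least 3 arrays of a fit. limma 3.58.1 (R 4.3.3) was fitted on all kept probes of 2 groups, with the study's cut-off (fold of 2, unadjusted p of 0.01) and Benjamini-Hochberg adjustment.

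Each gene was led by its brightest probe, and all 9 genes are named whatever their values. "At least" folds set the bright group's mean Cy5 against the dim group's mean of the higher of each array's lowest signal above background and the probe's own, hold for the deposited background correction, are open to dye bias, and use all arrays of a group. That lowest signal is not a detection limit of the probe itself. A gene of the lists was named where it passed the cut-off. Vpreb2, Vpreb3, Dntt, Rag2, Il7r, Jchain, Mzb1, Xbp1, Derl3, Sdc1, Prdm1, Tnfrsf17, Plin1 and Itgam were named after their values were seen. Members, gene lists and tests were chosen with earlier results of these data known. The number of arrays limits the precision, and p-values measure the spread between these mice. Columns left unused because they matched no sample: none. Alternatives were other normalizations, filters, weights, blocks and left-out arrays.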

Additional observations from a re-analysis of the deposited data

Results flagged for a closer look

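Within groups of 4 arrays, 27 combinations of member probe and group were examined for a single array far from the others, and 6 stood out by Dixon's criterion, where chance gives about 1 in 20. Vpreb1 was flagged in both sham groups: FLT-Sham replicate 8 had a log2 ratio of -2.91 against 0.74 to 1.23 on the other arrays, and G-Sham replicate 5 had -0.80 against -2.90 to -2.78. Cd79b was flagged at FLT-Sham replicate 9, with -2.06 against -2.69 to -2.65. The remaining flags were at probes below background whose other values were exactly 0 through the noise surrogate: 0.34 for Rag1 (A_51_P232411) at G-Surgery replicate 5, 0.91 for Igll1 at G-Sham replicate 3 and -1.43 for Igll1 at FLT-Sham replicate 9.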

How the results depend on the processing

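No member passed the cut-off in any of the 5 tests (limma, each at 0 of 9 genes). The count was 2 with array weights in FLT-Sham against G-Sham, in FLT-Surgery against FLT-Sham and in the interaction (Vpreb1 and Ebf1 each time), and 1 in FLT-Surgery against FLT-Sham with all 15 arrays in the fit (Vpreb1). With array weights 17.5% of all probes passed as higher in the first, 33.8% as lower in the second and 22.3% as lower in the interaction, and with all 15 arrays in the fit 11.8% passed as lower in the second. With each array left out in turn it ran from 0 to 2, 0 to 2 and 0 to 1 in these 3 tests. FLT-Sham replicate 8 gave the highest counts in FLT-Sham against G-Sham (2) and in the interaction (1), and FLT-Surgery replicate 1 in FLT-Surgery against FLT-Sham (2, Cd79b and Ebf1; 1, Vpreb1, without FLT-Sham replicate 8). Without FLT-Sham replicate 4, 6 or 9, Vpreb1 and Ebf1 could not be fitted, since fewer than 3 arrays were left above background. The count stayed at 0 under the other alternatives, also at an adjusted p of 0.05 without a fold limit.

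Signs that turned belonged to members that did not pass. With further loess Cd79b was -0.024 in FLT-Sham against G-Sham, 0.073 in FLT-Surgery against G-Surgery and 0.097 in the interaction. With normexp and loess Cd79b was -0.45, 0.46, 0.79 (FLT-Surgery against FLT-Sham) and 0.90 (interaction), Cd22 -0.17 in FLT-Surgery against FLT-Sham, and Ms4a1 -0.27 in FLT-Sham against G-Sham and 0.47 in the interaction. With array weights Pax5 was -0.91 and Ms4a1 -0.76 in FLT-Sham against G-Sham, and with Cy5 alone Pax5 was 0.31 in the interaction. With arrays left out, Pax5 ran from -0.54 to 1.001 in FLT-Sham against G-Sham and from -2.09 to 0.30 in the interaction, and Cd79b from -1.13 to 0.11 in FLT-Surgery against G-Surgery and from -0.75 to 0.12 in G-Surgery against G-Sham. Of 335 fitted alternatives for single members, 304 kept their direction and side of the cut-off. Vpreb1 in FLT-Sham against G-Sham was 1.59 with further loess and 0.53 with normexp, and Ebf1 was 1.17 and 0.16. In FLT-Surgery against FLT-Sham, Vpreb1 was -1.91 with further loess and -0.51 with normexp, and Ebf1 was -0.59 and -0.07. In the interaction Vpreb1 was -1.26 and -0.56, and Ebf1 was -0.12 and -0.08. The cause was not tested.

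The median difference of all probes moved from 0.24 to -0.09 with further loess in FLT-Sham against G-Sham, and the split of probes past the cut-off from 353 higher and 41 lower to 183 and 73. It moved from 173 and 346 to 1173 and 59 in FLT-Surgery against G-Surgery, from 368 and 90 to 242 and 185 in G-Surgery against G-Sham, and from 81 and 1191 to 625 and 604 in FLT-Surgery against FLT-Sham. With the replicate number as a block, 0 members passed in FLT-Surgery against G-Surgery and 0 in G-Surgery against G-Sham, and probes passing went from 173 and 346 to 109 and 106 and from 368 and 90 to 289 and 100. Same-numbered arrays did not deviate together (correlations -0.36, -0.19 and 0.24, then 0.35, -0.05, -0.07 and -0.16), so the numbers were not taken as pairs. Dim signal limits what can be seen: Igll1, Rag1 and Cd79a did not pass the filter on dim probes in any comparison.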
